A study of Mus musculus with 12 samples.

Results

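The enzymes described here are those that make foreign chemicals and many of the body's own lipids, hormones and bile products more water-soluble: cytochrome P450 enzymes of families 1 to 4 (Cyp), carboxylesterases (Ces), aldehyde dehydrogenases (Aldh), UDP-glucuronosyltransferases (Ugt), glutathione S-transferases (Gst) and cytosolic sulfotransferases (Sult). The rule for a member uses the gene symbol alone. Of 17097 genes with a single symbol on the array, 123 carried such a symbol: 51 Cyp, 13 Ces, 21 Aldh, 9 Ugt, 16 Gst and 13 Sult genes. They were measured by 154 probe sets, and for the 24 genes with several the brightest over the 12 arrays stood for the gene.

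The cells came from colon adenomas of 3 mice, MKL347, MKL358 and MKL367, and were sorted on 2 markers: Mex3a, whose protein binds RNA, and Lgr5, a cell surface receptor known from stem cells of the crypt base. Each mouse gave 1 array for each of 4 populations: positive for both markers (Mex3a+ Lgr5+), for Mex3a alone (Mex3a+ Lgr5-), for Lgr5 alone (Mex3a- Lgr5+) or for neither (Mex3a- Lgr5-). Each population thus had 3 arrays and the replicates were mice. Every title carries the genotype ki/+ (Mex3A+ and LGR5 + are the titles' spellings of the markers); the titles do not say which allele that is, and no label gives an age, sex, strain or treatment. All populations, Mex3a- Lgr5- cells included, carry it, so the arrays hold no mouse without the allele. Every title names adenoma and none names normal mucosa. The titles do not say whether normal cells were among those sorted. Each sample pooled several adenomas of the mouse, with 500 sorted cells for MKL358 and 2000 for MKL347 and MKL367. The pool size and the mouse cannot be told apart.

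Phase I enzymes expose or add a reactive group on a substrate: P450 enzymes oxidise it with the help of a haem iron, carboxylesterases split esters and amides, and aldehyde dehydrogenases turn aldehydes into acids. Phase II enzymes attach a large polar group: glucuronic acid by Ugt enzymes, glutathione by Gst enzymes and sulfate by Sult enzymes. In the intestine these enzymes are known mainly from the differentiated cells of the surface epithelium, which meet drugs, dietary compounds and bacterial products first.

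Levels are deposited log2 values made by RMA, a method that combines the probes of a set into 1 value; a log2 difference of 1 is a 2-fold difference. Array medians lay between 4.86 and 4.92, and arrays of 1 population correlated at 0.984 to 0.994 across probe sets. Both marker genes followed the labels: Mex3a was 0.69 ± 0.12 (SE) higher in the 6 Mex3a+ arrays (adjusted p = 0.00162), and Lgr5 was 1.55 ± 0.14 higher in the 6 Lgr5+ arrays (adjusted p = 0.000872), with no overlap in either; without mouse MKL347 these adjusted p were 0.0621 and 0.307. Lgr5 was also 0.82 ± 0.14 higher in the Mex3a+ arrays (adjusted p = 0.00139), with overlap, so Mex3a+ and Mex3a- cells differed in Lgr5 too. Among lists of cell type markers, scored per array as the mean difference of their genes from the 12-array mean, a few arrays stood apart. The neutrophil list (12 genes on the array) stood at 0.77 and 1.19 on the Mex3a- arrays of MKL358 and between -0.44 and 0.15 on the other arrays. The list for fibroblasts and smooth muscle stood at 0.69 on the Mex3a- Lgr5+ array of MKL367, the mast cell list at 0.73 on the Mex3a+ Lgr5+ array of MKL367 and the enteroendocrine list at 0.67 on the Mex3a- Lgr5- array of MKL358.

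A gene was tested where at least 3 arrays gave a level over 4.40, which is the 40th percentile of the whole table, and was called where the adjusted p of limma (Benjamini-Hochberg over 12595 genes) was below 0.05. A limma difference is given with its standard error (SE). Of the 123 enzyme genes, 64 were tested. Most of the Gst and Aldh genes were above that level in adenoma cells (15 of 16 and 19 of 21 tested), against 6 of 13 Ces, 6 of 13 Sult, 4 of 9 Ugt and 14 of 51 Cyp genes. Within the P450 enzymes, none of 3 Cyp1 genes was tested, 8 of 29 Cyp2, 1 of 6 Cyp3 and 5 of 13 Cyp4 genes. On all 12 arrays 43 members were above the level, and 57 were above it on none. The brightest of each family by mean level were Gstp1 (10.96), Aldh2 (10.57), Ugt2b34 (8.74), Sult1a1 (6.54), Cyp2d26 (6.36) and Ces2f (5.53); levels of different probe sets do not rank transcripts, so these are brightness values only. The 59 members left out had mean levels of 2.77 to 4.33, and for 54 of them the Mex3a+ minus Mex3a- difference was smaller than 0.2 in size. The 5 exceptions were Aldh1a7 (-0.61), Ces1f (-0.41), Cyp2d10 (-0.34), Aldh3a1 (0.22) and Cyp2c50 (0.25).

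More of the tested enzymes were lower than higher in Mex3a+ cells. Averaged over both Lgr5 states, with 6 arrays against 6, 27 of the 123 members were called lower and 7 higher. Among the 64 tested these are 42.2% and 10.9%; of all 12595 genes tested, 17.3% were called lower and 9.91% higher, so the share of higher calls was close to that of the array at large. The 64 tested members include genes that passed the filter only through the populations where they were bright, so the shares are given as description. All 27 falls and all 7 rises had the same sign in each of the 3 mice. The calls were made on these same arrays, so the shared sign is partly fixed by that choice. Its share among all called genes was not computed. In 21 of the 64 tested members, all 6 Mex3a+ arrays lay below all 6 Mex3a- arrays, beside 9.02% of all genes tested. In 4 of the 64 they lay above, beside 4.27% of all genes. The 21 were all among the 27 called lower and the 4 among the 7 called higher. The difference was 2-fold or more for 15 of the lower and 2 of the higher members. In 4 of the 27 (Cyp2d34, Cyp4f14, Aldh1a1 and Cyp2d13) no Mex3a+ array was above the filter level, so their differences have a lower bound only, taken here with those arrays at 4.40; with these 4 at their bound, 13 of the lower members were 2-fold or more. Of the 43 members above the filter level on all 12 arrays, 17 were called lower, 6 higher and 20 neither. The matching share of all genes above it on all 12 arrays was not computed, so these counts are description only. Over all 123 members the median difference was -0.02, beside 0.01 over all 17097 genes. With dim genes included, the Gst genes had the lowest family median, -0.41, with -0.40, -0.38 and -0.43 in MKL347, MKL358 and MKL367. Of the 16 Gst genes 15 were tested, against 14 of 51 Cyp, 6 of 13 Sult and 4 of 9 Ugt genes. Dim genes near 0 thus weigh more in those medians, which do not rank the families by the size of their differences. With the mouse as a block, 31 members were called lower and 9 higher, beside 25.3% and 15.9% of all genes. Lower calls made up 79.4% of the members' calls and 63.5% of those of all genes; with quantile normalization these shares were 75% and 53.6%, with arrays centred on their medians 80% and 70.8%, and with arrays centred on the genes tested, an alternative chosen after seeing the data, 76.5% and 50.7%. Leaving out each of the 12 arrays in turn, those that stood apart included, gave 24 to 28 lower and 7 to 8 higher members. Leaving out mouse MKL347 moved the counts most: without it 17 members were called lower and 3 higher, and the count over all genes fell to 721 lower and 295 higher. In such pooled cells, fewer cells of a type and less RNA per cell cannot be told apart.

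**Figure D1:**
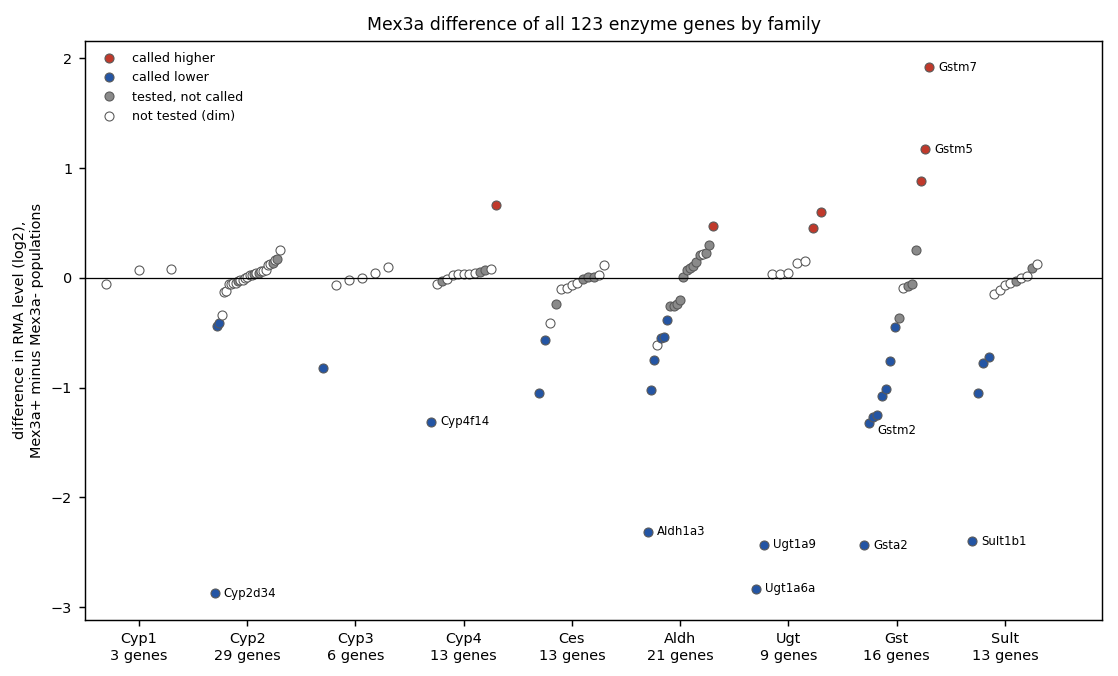
Difference in RMA level (log2) between Mex3a+ and Mex3a- populations (6 arrays each) for all 123 enzyme genes, grouped by family on the x axis and ordered by size within it; red points were called higher, blue lower, grey ones were tested and not called, and white ones were too dim to test. The 27 genes called lower reach down to -2.88 (Cyp2d34), and the 7 called higher reach up to 1.92 (Gstm7).

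Among the P450 enzymes, 5 members fell in Mex3a+ cells and 1 rose, of 14 tested. For this and each family count below, the shares over all genes tested were 17.3% lower and 9.91% higher. Values are given for MKL347, MKL358 and MKL367 in that order here and below. The Cyp2d34 level, of a gene in the drug-oxidising Cyp2d cluster, was 3.496, 3.28 and 3.496 in Mex3a+ Lgr5+ cells, 3.87, 3.46 and 3.37 in Mex3a+ Lgr5- cells, 6.09, 6.05 and 4.85 in Mex3a- Lgr5+ cells and 7.50, 6.77 and 6.97 in Mex3a- Lgr5- cells. The Mex3a+ arrays were all below the filter level, and all Mex3a- arrays were above them, highest in Mex3a- Lgr5- cells. The measured difference was -2.88 ± 0.21 (SE, adjusted p = 8.74e-06), with -3.11, -3.04 and -2.48 in the 3 mice. With the Mex3a+ arrays at the filter level, Cyp2d34 was at least 3.92-fold lower. The Cyp4f14 level, of an omega-hydroxylase of fatty acids and leukotrienes, was 3.69, 3.56 and 3.64 in Mex3a+ Lgr5+ cells, 3.99, 3.83 and 3.83 in Mex3a+ Lgr5- cells, 4.98, 5.02 and 4.37 in Mex3a- Lgr5+ cells and 6.31, 4.75 and 4.995 in Mex3a- Lgr5- cells, a difference of -1.31 ± 0.22 (SE, adjusted p = 0.00139). Its Mex3a+ arrays lay below every Mex3a- array and below the filter level, which bounds the fall of Cyp4f14 at 1.59-fold or more, and the Mex3a- Lgr5- array of MKL347 was the highest. Smaller falls were called for Cyp3a13, the Cyp3a enzyme known from mouse intestine (-0.82 ± 0.22, adjusted p = 0.017), Cyp2d13 (-0.44 ± 0.12, adjusted p = 0.0202) and Cyp2j6, an epoxygenase of arachidonic acid (-0.41 ± 0.12, adjusted p = 0.0244). In Cyp3a13 the Mex3a+ and Mex3a- arrays did not overlap, and in the other pair they did; 1 of the 6 Mex3a+ arrays was above the filter level for Cyp3a13 and none for Cyp2d13, for which the bound was 1.1-fold. Within the mice the Cyp3a13 difference was -1.50, -0.46 and -0.50, and its adjusted p was 0.0525 without MKL367. The Cyp2j6 call was lost without MKL347 (adjusted p = 0.0558), without MKL367 (0.165) and without any of 5 single arrays (0.0502 to 0.0648). The Cyp2d13 call was lost without the Mex3a- Lgr5- array of MKL347 (0.0505) or the Mex3a+ Lgr5- array of MKL367 (0.0548).

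The P450 enzyme that rose was Cyp4v3, a fatty acid hydroxylase. The Cyp4v3 level was 5.96, 5.53 and 6.08 in Mex3a+ Lgr5+ cells, 5.46, 5.44 and 5.84 in Mex3a+ Lgr5- cells, 5.30, 5.14 and 5.09 in Mex3a- Lgr5+ cells and 4.72, 4.94 and 5.12 in Mex3a- Lgr5- cells, so all Mex3a+ arrays were above all Mex3a- arrays, and the difference was 0.67 ± 0.11 (SE, adjusted p = 0.00147). Its second probe set was dim (mean 3.57) and differed by 0.15. The other 8 tested P450 enzymes differed by -0.03 to 0.17 and were not called; they include the brightest, Cyp2d26 (0.05 ± 0.10, adjusted p = 0.776), and Cyp4f16 (-0.03 ± 0.07, adjusted p = 0.812); Cyp4f41-ps among them is a pseudogene by its symbol. Cyp1a1, Cyp1a2 and Cyp1b1, of which Cyp1a1 is the classical target of the aryl hydrocarbon receptor, were too dim to test, with differences of 0.08, 0.08 and -0.06.

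Of 6 tested carboxylesterases, 2 fell in Mex3a+ cells and none rose. The Ces2e level was 4.58, 4.73 and 4.70 in Mex3a+ Lgr5+ cells, 4.84, 4.97 and 4.48 in Mex3a+ Lgr5- cells, 5.76, 5.26 and 5.37 in Mex3a- Lgr5+ cells and 6.55, 5.80 and 5.88 in Mex3a- Lgr5- cells, a difference of -1.05 ± 0.14 (SE, adjusted p = 0.000398). The Ces2a level was 4.33, 4.42 and 4.80 in Mex3a+ Lgr5+ cells, 4.51, 4.67 and 4.79 in Mex3a+ Lgr5- cells, 4.86, 4.91 and 4.89 in Mex3a- Lgr5+ cells and 5.43, 5.44 and 5.39 in Mex3a- Lgr5- cells, a difference of -0.57 ± 0.08 (SE, adjusted p = 0.000598). Both genes belong to the Ces2 group, which is known for the splitting of esters with bulky alcohol parts, and in both all Mex3a+ arrays lay below all Mex3a- arrays. Their neighbour Ces2f, the brightest of the family, was not called (0.00 ± 0.09, adjusted p = 0.982), and neither was Ces1e (-0.01 ± 0.09, adjusted p = 0.968). Ces2g was called lower with the mouse as a block (adjusted p = 0.0457) and not without (-0.24 ± 0.13, adjusted p = 0.208).

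Of 19 tested aldehyde dehydrogenases, 6 fell in Mex3a+ cells (31.6%), 1 rose (5.26%) and 12 were not called. Of all genes tested, 17.3% were called lower and 9.91% higher, so the share of rises was not above that of the array at large. The largest fall was in Aldh1a3, which makes retinoic acid from retinaldehyde. The Aldh1a3 level was 6.43, 7.56 and 6.20 in Mex3a+ Lgr5+ cells, 7.26, 8.41 and 6.15 in Mex3a+ Lgr5- cells, 9.74, 8.97 and 8.08 in Mex3a- Lgr5+ cells and 9.95, 10.03 and 9.13 in Mex3a- Lgr5- cells, a difference of -2.32 ± 0.40 (SE, adjusted p = 0.00149), a 4.98-fold fall. The ranges overlapped, with the Mex3a+ Lgr5- array of MKL358 above the Mex3a- Lgr5+ array of MKL367; within the mice the difference was -3.004, -1.51 and -2.43. With the mouse as a block its adjusted p was 4.85e-06, and without MKL347 the unblocked adjusted p was 0.0718. Its 2 other probe sets differed by -1.82 and -2.32. The level of Aldh1a1, another retinaldehyde oxidase, was 3.79, 3.68 and 3.44 in Mex3a+ Lgr5+ cells, 3.81, 4.12 and 3.78 in Mex3a+ Lgr5- cells, 4.66, 4.58 and 4.21 in Mex3a- Lgr5+ cells and 5.81, 4.61 and 4.90 in Mex3a- Lgr5- cells, a difference of -1.03 ± 0.18 (SE, adjusted p = 0.00149). All Mex3a+ arrays lay below the Mex3a- arrays and below the filter level, so Aldh1a1 was at least 1.31-fold lower. The third retinaldehyde oxidase, Aldh1a2, was near the filter level and not called (0.14 ± 0.06, adjusted p = 0.124).

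The other aldehyde dehydrogenases that fell did so by smaller amounts. They were Aldh3b2 (-0.75 ± 0.24, adjusted p = 0.0373), the mitochondrial Aldh1b1 (-0.55 ± 0.13, adjusted p = 0.0102), Aldh16a1 (-0.54 ± 0.09, adjusted p = 0.00105) and Aldh2, the mitochondrial enzyme of acetaldehyde oxidation and the brightest of the family (-0.39 ± 0.07, adjusted p = 0.00273). The Aldh2 level was 10.38, 10.36 and 10.29 in Mex3a+ Lgr5+ cells, 10.66, 10.21 and 10.36 in Mex3a+ Lgr5- cells, 10.68, 10.58 and 10.43 in Mex3a- Lgr5+ cells and 11.03, 10.98 and 10.88 in Mex3a- Lgr5- cells. Its highest values were in Mex3a- Lgr5- cells in each mouse, and only there did all 3 arrays lie above every Mex3a+ array. The 1 member that rose was Aldh5a1, succinate semialdehyde dehydrogenase of GABA breakdown, with 5.51, 4.87 and 5.09 in Mex3a+ Lgr5+ cells, 5.22, 4.63 and 4.85 in Mex3a+ Lgr5- cells, 4.73, 4.45 and 4.59 in Mex3a- Lgr5+ cells and 4.43, 4.38 and 4.73 in Mex3a- Lgr5- cells and a difference of 0.48 ± 0.13 (SE, adjusted p = 0.0168). Several of these calls were lost without 1 mouse. Without MKL347 the adjusted p was 0.0523 for Aldh16a1, 0.0534 for Aldh1b1, 0.299 for Aldh3b2 and 0.117 for Aldh5a1. Without MKL367 it was 0.147 for Aldh3b2 and 0.0891 for Aldh5a1; without MKL358 it was 0.0772 for Aldh1b1. Aldh3b2 also lost its call under quantile normalization (0.0527), with arrays centred on the genes tested (0.0507) and without any of 9 single arrays (0.0559 to 0.0923). Not called without the block and called with it were falls of Aldh9a1, an enzyme of carnitine synthesis (-0.24, adjusted p = 0.000271 against 0.0884), and Aldh3b1 (-0.26, 0.0435 against 0.0718), and a rise of Aldh4a1, an enzyme of proline breakdown (0.23, 0.025 against 0.0765). Other settings called them too: Aldh9a1 without the Mex3a+ Lgr5- array of MKL347 (0.0314), Aldh3b1 with quantile normalization (0.0361) or median centring (0.0392), and Aldh4a1 with array weights (0.0207) and without the Mex3a- Lgr5- array of MKL358 (0.0232) or the Mex3a+ Lgr5- array of MKL347 (0.0371). Aldh1l1, a folate enzyme and among the 3 brightest, was not called (0.30 ± 0.12, adjusted p = 0.0902). It was called higher with quantile normalization (0.0274), array weights (0.0276) and centring on the genes tested (0.0463), and without MKL358 (0.0228) or its Mex3a+ Lgr5+ array (0.0278).

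The glucuronosyltransferases divided by subfamily: both tested Ugt1 genes fell in Mex3a+ cells and both tested Ugt2 genes rose. Ugt1a6a and Ugt1a9 are transcribed from 1 locus with separate first exons and shared later exons, so a probe set over the shared part would read them together, and they are not independent. Their promoter windows are shown because each gene has its own. Each spans 250 bases before to 50 after the RefSeq start on the + strand of GRCm38.p6, chr1:88070529-88070828 for Ugt1a9 and chr1:88134559-88134858 for Ugt1a6a, and capitals mark GTTAAT, part of the Hnf1 site, or its complement ATTAAC.
Ugt1a9: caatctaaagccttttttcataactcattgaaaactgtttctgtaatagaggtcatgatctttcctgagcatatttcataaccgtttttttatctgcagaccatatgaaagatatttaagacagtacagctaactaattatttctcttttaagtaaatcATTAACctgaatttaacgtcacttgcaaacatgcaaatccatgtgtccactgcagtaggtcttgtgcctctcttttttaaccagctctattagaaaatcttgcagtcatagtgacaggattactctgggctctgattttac
Ugt1a6a: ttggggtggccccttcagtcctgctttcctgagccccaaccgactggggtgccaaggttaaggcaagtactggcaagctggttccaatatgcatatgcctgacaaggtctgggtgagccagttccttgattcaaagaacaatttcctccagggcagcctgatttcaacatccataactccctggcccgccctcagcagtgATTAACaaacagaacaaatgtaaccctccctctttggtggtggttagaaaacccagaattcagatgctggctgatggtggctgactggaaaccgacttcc
Each window holds 1 match, starting at -91 from the start in Ugt1a9 and at -50 in Ugt1a6a. The motif was found in 7.1% of 32851 RefSeq promoter windows of the same length, on either strand, and in 9.48% of the 116 windows of members.

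The Ugt1a6a level, of an enzyme that conjugates planar phenols, was 5.45, 5.61 and 5.02 in Mex3a+ Lgr5+ cells, 5.997, 5.51 and 4.95 in Mex3a+ Lgr5- cells, 8.22, 7.91 and 7.52 in Mex3a- Lgr5+ cells and 8.86, 8.78 and 8.24 in Mex3a- Lgr5- cells. All 6 Mex3a- arrays were at 7.52 or above and all 6 Mex3a+ arrays at 5.997 or below. The difference was -2.83 ± 0.19 (SE, adjusted p = 7.2e-06), a 7.13-fold fall, and it was nearly equal in the 3 mice (-2.82, -2.79 and -2.90). The Ugt1a9 level was 4.37, 4.53 and 4.31 in Mex3a+ Lgr5+ cells, 4.59, 4.39 and 4.11 in Mex3a+ Lgr5- cells, 6.98, 6.07 and 6.22 in Mex3a- Lgr5+ cells and 7.54, 7.40 and 6.66 in Mex3a- Lgr5- cells, a difference of -2.43 ± 0.18 (SE, adjusted p = 9.79e-06); 2 of its 6 Mex3a+ arrays were above the filter level. A second probe set of Ugt1a6a differed by -2.38; the brighter one is of the s_at type, which can detect related transcripts. For the Ugt2 genes, which conjugate steroids and bile acids as a group, the rises were small. The Ugt2b34 level was 9.20, 8.77 and 8.87 in Mex3a+ Lgr5+ cells, 9.12, 8.85 and 8.96 in Mex3a+ Lgr5- cells, 8.46, 8.36 and 8.61 in Mex3a- Lgr5+ cells and 8.52, 8.38 and 8.73 in Mex3a- Lgr5- cells (0.45 ± 0.09, adjusted p = 0.00439), and its second probe set differed by 0.46. The Ugt2b35 level was 6.43, 6.18 and 5.99 in Mex3a+ Lgr5+ cells, 6.52, 6.47 and 6.46 in Mex3a+ Lgr5- cells, 5.81, 5.87 and 5.89 in Mex3a- Lgr5+ cells and 5.44, 5.46 and 6.002 in Mex3a- Lgr5- cells (0.60 ± 0.11, adjusted p = 0.00184). In Ugt2b34 the Mex3a+ and Mex3a- arrays did not overlap, whereas in Ugt2b35 the highest Mex3a- array (6.002) exceeded the lowest Mex3a+ array (5.99). Both calls were lost without MKL347, with adjusted p = 0.105 for Ugt2b34 and 0.0721 for Ugt2b35.

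The glutathione S-transferases were the family with the most calls, 8 lower and 3 higher of 15 tested. The mu genes (Gstm), which lie side by side on chromosome 3, went in both directions. In chromosome order, Gstm5, Gstm7 and Gstm6 rose, Gstm3 and Gstm2 fell, Gstm1 was not called and Gstm4 was too dim to test. Promoter windows of a pair that rose and of the pair that fell are shown because the genes are close relatives with opposite differences. They span 250 bases before to 50 after the start in GRCm38.p6: chr3:107895604-107895903 on the + strand for Gstm5, and on the - strand chr3:107931565-107931864 for Gstm7 (the start of 2 listed that holds a match), chr3:107969125-107969424 for Gstm3 and chr3:107986371-107986670 for Gstm2. Capitals mark GCGTG, the core of the aryl hydrocarbon receptor element, and TGACNNNGC, the antioxidant response element, on either strand; the same 4 motifs were searched in all windows.
Gstm5: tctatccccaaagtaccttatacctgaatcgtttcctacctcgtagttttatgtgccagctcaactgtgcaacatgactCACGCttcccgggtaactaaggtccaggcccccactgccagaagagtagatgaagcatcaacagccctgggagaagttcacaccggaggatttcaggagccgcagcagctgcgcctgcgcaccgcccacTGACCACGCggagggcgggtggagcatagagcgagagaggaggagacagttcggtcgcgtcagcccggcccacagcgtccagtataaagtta
Gstm7: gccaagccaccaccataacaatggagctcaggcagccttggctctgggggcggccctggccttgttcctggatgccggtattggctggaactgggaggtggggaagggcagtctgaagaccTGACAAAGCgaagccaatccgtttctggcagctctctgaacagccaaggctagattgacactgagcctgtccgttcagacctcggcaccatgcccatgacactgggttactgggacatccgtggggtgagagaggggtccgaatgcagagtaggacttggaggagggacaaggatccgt
Gstm3: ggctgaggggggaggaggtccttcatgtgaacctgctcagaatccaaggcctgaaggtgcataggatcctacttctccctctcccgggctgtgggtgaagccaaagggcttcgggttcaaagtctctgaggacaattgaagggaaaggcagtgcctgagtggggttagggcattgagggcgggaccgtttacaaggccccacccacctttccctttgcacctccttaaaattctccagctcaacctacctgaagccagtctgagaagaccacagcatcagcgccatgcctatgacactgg
Gstm2: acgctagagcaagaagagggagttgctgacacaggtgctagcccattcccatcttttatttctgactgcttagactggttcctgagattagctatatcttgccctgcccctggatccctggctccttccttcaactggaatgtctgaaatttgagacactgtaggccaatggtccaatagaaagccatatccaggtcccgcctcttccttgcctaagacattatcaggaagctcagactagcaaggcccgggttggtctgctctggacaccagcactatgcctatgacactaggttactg
The Gstm5 window holds CACGC, the complement of GCGTG, at -171 and -38 and TGACCACGC at -42, so the last 2 overlap. The Gstm7 window holds TGACAAAGC at -129. Those of Gstm3 and Gstm2 hold none of the 4 motifs searched, which says only that these letters are not in these windows. The matches did not follow the direction: the other window of Gstm7 and all 3 of Gstm6, which rose, held none, and both windows of Gstm1, which was not called, held GCGTG.

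The Gstm5 level was 9.88, 8.98 and 9.35 in Mex3a+ Lgr5+ cells, 9.56, 8.67 and 9.27 in Mex3a+ Lgr5- cells, 8.48, 8.02 and 8.43 in Mex3a- Lgr5+ cells and 7.82, 7.58 and 8.34 in Mex3a- Lgr5- cells. The Gstm7 level was 7.51, 6.601 and 7.44 in Mex3a+ Lgr5+ cells, 8.14, 6.72 and 8.05 in Mex3a+ Lgr5- cells, 5.41, 4.87 and 5.54 in Mex3a- Lgr5+ cells and 5.63, 4.79 and 6.69 in Mex3a- Lgr5- cells. The Gstm6 level was 5.53, 5.90 and 5.35 in Mex3a+ Lgr5+ cells, 5.73, 5.45 and 5.63 in Mex3a+ Lgr5- cells, 4.47, 4.50 and 4.77 in Mex3a- Lgr5+ cells and 4.84, 4.46 and 5.24 in Mex3a- Lgr5- cells. In Gstm5 and Gstm6 every Mex3a+ array was above every Mex3a- array; in Gstm7 the Mex3a- Lgr5- array of MKL367 (6.69) exceeded the Mex3a+ Lgr5+ array of MKL358 (6.601). The differences were 1.17 ± 0.19 (SE, adjusted p = 0.00115), 1.92 ± 0.34 (SE, adjusted p = 0.00158) and 0.89 ± 0.13 (SE, adjusted p = 0.000729), and within the mice the Gstm7 difference was 2.304, 1.83 and 1.63. The call of Gstm7 was lost without MKL347 (adjusted p = 0.0713) and its second probe set was dim (mean 3.58) with a difference of 0.06. With the mouse as a block the adjusted p of Gstm7 was 1.31e-06.

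The 2 neighbours that fell were Gstm2 and Gstm3. The Gstm2 level was 5.83, 6.72 and 5.75 in Mex3a+ Lgr5+ cells, 6.17, 5.97 and 5.75 in Mex3a+ Lgr5- cells, 7.49, 7.73 and 6.76 in Mex3a- Lgr5+ cells and 7.41, 7.69 and 7.05 in Mex3a- Lgr5- cells, a difference of -1.33 ± 0.21 (SE, adjusted p = 0.000793). The Gstm3 level was 5.65, 5.86 and 5.29 in Mex3a+ Lgr5+ cells, 5.78, 5.58 and 5.53 in Mex3a+ Lgr5- cells, 6.81, 6.73 and 5.87 in Mex3a- Lgr5+ cells and 6.67, 7.17 and 6.49 in Mex3a- Lgr5- cells, a difference of -1.01 ± 0.18 (SE, adjusted p = 0.00158). In both, every Mex3a+ array lay below every Mex3a- array. The Gstm3 call was lost without MKL347 (adjusted p = 0.0501). Gstm1, a major mu enzyme, was at 8.87 ± 0.25 (SD, n = 3) in Mex3a+ Lgr5+ cells and 8.72 ± 0.21 in Mex3a- Lgr5- cells and was called higher with the mouse as a block (adjusted p = 0.0196) or quantile normalization (0.0364) and not otherwise (adjusted p = 0.124 in the unblocked fit). The mu genes resemble each other in sequence, and the probe sets of Gstm3 and Gstm1 are of the types that the array's maker marks as able to detect related transcripts. How much each probe set reads of its neighbours was not tested; with all s_at and x_at probe sets left out, 26 members were called lower and 6 higher.

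**Figure D2:**
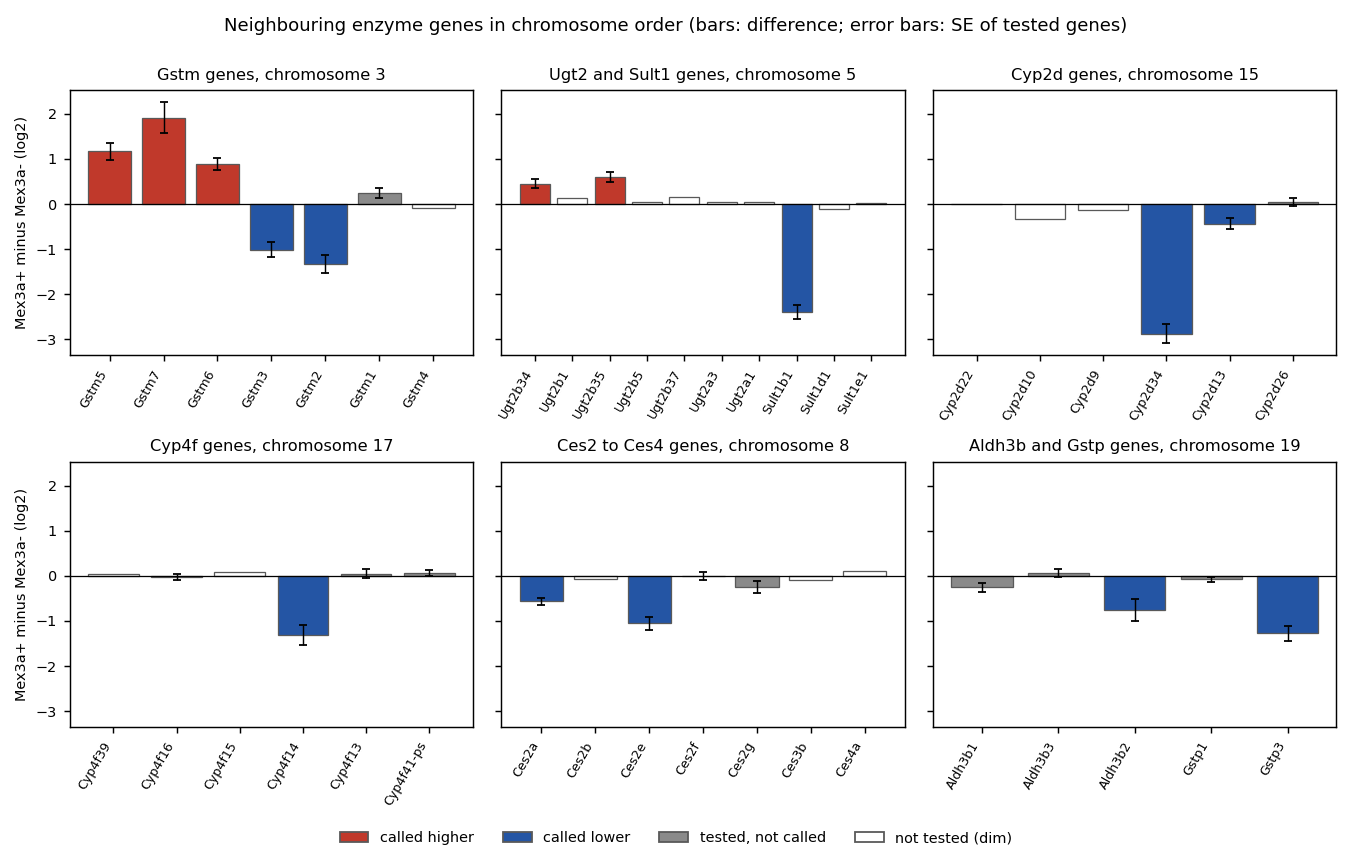
Mex3a+ minus Mex3a- difference (log2, y axis) for enzyme genes that neighbour each other, in chromosome order, in 6 clusters; error bars are limma's SE for tested genes and bars without one are genes too dim to test. On chromosome 3 Gstm5, Gstm7 and Gstm6 stand above 0 and Gstm3 and Gstm2 below, Cyp4f14 is the only called gene of its 6, and Sult1b1 (-2.40) stands below 0 beside Ugt2b34 (0.45) and Ugt2b35 (0.60).

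Outside the mu cluster the glutathione S-transferases that differed all fell in Mex3a+ cells. The Gsta2 level, of an alpha enzyme of a class that reduces lipid peroxides, was 4.92, 4.83 and 4.18 in Mex3a+ Lgr5+ cells, 4.68, 5.32 and 4.40 in Mex3a+ Lgr5- cells, 6.97, 7.52 and 6.06 in Mex3a- Lgr5+ cells and 7.08, 8.70 and 6.64 in Mex3a- Lgr5- cells, a difference of -2.44 ± 0.35 (SE, adjusted p = 0.000534). Every Mex3a+ array was below every Mex3a- array, the Mex3a- Lgr5- array of MKL358 was the highest, and the difference was -2.22, -3.04 and -2.06 in the 3 mice. This Gsta2 probe set is of the s_at type, which can detect related transcripts. The second Gsta2 probe set was dim (mean 3.61) and differed by 0.02. The Gsto1 level, of an omega enzyme with reductase activity, was 8.29, 8.67 and 7.94 in Mex3a+ Lgr5+ cells, 8.44, 8.47 and 7.97 in Mex3a+ Lgr5- cells, 9.29, 9.39 and 8.89 in Mex3a- Lgr5+ cells and 9.66, 9.78 and 9.26 in Mex3a- Lgr5- cells, a difference of -1.08 ± 0.15 (SE, adjusted p = 0.000473). It was alike in the 3 mice (-1.11, -1.01 and -1.12), and its second probe set differed by -1.44. The Gstp3 level was 4.77, 4.84 and 4.37 in Mex3a+ Lgr5+ cells, 4.53, 4.92 and 4.41 in Mex3a+ Lgr5- cells, 5.77, 6.13 and 5.43 in Mex3a- Lgr5+ cells and 5.76, 6.53 and 5.87 in Mex3a- Lgr5- cells, a difference of -1.27 ± 0.16 (SE, adjusted p = 0.000318), and again no arrays overlapped. Its neighbour Gstp1, the pi enzyme common in epithelia and the brightest of all 123 members, was at 10.99, 10.94 and 10.81 in Mex3a+ Lgr5+ cells, 11.04, 10.87 and 10.89 in Mex3a+ Lgr5- cells, 10.91, 11.01 and 10.96 in Mex3a- Lgr5+ cells and 10.997, 11.07 and 11.07 in Mex3a- Lgr5- cells and was not called (-0.08 ± 0.05, adjusted p = 0.232). The theta enzyme Gstt3 differed by -1.25 ± 0.20 (SE, adjusted p = 0.000821), with adjusted p = 0.0566 without MKL347. Gstk1, the kappa enzyme of mitochondria and peroxisomes (-0.76 ± 0.12, adjusted p = 0.000775), and Gstt2 (-0.45 ± 0.10 (SE, adjusted p = 0.00766); 0.0792 without MKL347 and 0.0521 without MKL367) were also called lower; they fell outside the rule for named genes and were chosen after their values were seen. Gstt1, between Gstt3 and Gstt2 on chromosome 10, was not called (-0.06 ± 0.08, adjusted p = 0.654). Gsta4, which clears aldehydes of lipid peroxidation, was called lower with the mouse as a block and under no other setting run (-0.36, adjusted p = 0.00468 against 0.293); its level was 8.74, 9.36 and 8.25 in Mex3a+ Lgr5+ cells, 8.59, 9.11 and 8.09 in Mex3a+ Lgr5- cells, 9.004, 9.81 and 8.83 in Mex3a- Lgr5+ cells and 8.58, 9.29 and 8.80 in Mex3a- Lgr5- cells, so the mice differed within every population.

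All 4 sulfotransferases called were lower in Mex3a+ cells, of 6 tested. Sult1b1 conjugates phenols and thyroid hormones and lies on chromosome 5 close to the Ugt2 genes that rose. Its promoter window is shown because it was the only one of the called members to hold CAAAGTCCA, a site of the Hnf4 type; it spans chr5:87536173-87536472 on the - strand of GRCm38.p6, the first of 2 listed starts, and capitals also mark a GCGTG.
Sult1b1: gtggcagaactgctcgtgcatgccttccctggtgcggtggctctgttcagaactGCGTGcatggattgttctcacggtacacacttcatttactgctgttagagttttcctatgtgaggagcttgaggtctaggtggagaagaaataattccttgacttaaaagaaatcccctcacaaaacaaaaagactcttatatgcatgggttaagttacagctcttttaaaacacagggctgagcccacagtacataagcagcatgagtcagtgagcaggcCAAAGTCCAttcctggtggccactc
CAAAGTCCA starts at 25 bases after the start. It was found in 0.47% of all promoter windows and in 5 of 116 windows of members, called or not (4.31%). The Sult1b1 level was 4.997, 5.07 and 5.30 in Mex3a+ Lgr5+ cells, 5.37, 5.03 and 5.24 in Mex3a+ Lgr5- cells, 7.55, 7.03 and 6.56 in Mex3a- Lgr5+ cells and 8.24, 8.26 and 7.79 in Mex3a- Lgr5- cells. No Mex3a+ array exceeded 5.37 and no Mex3a- array was below 6.56, with Mex3a- Lgr5- cells the highest in each mouse. The difference was -2.40 ± 0.15 (SE, adjusted p = 5.34e-06), a 5.28-fold fall. The phenol sulfotransferase Sult1a1, the brightest of the family, was at 5.98, 6.11 and 5.81 in Mex3a+ Lgr5+ cells, 6.07, 6.01 and 6.11 in Mex3a+ Lgr5- cells, 7.29, 6.86 and 6.48 in Mex3a- Lgr5+ cells and 7.21, 7.24 and 7.31 in Mex3a- Lgr5- cells, a difference of -1.05 ± 0.12 (SE, adjusted p = 0.000149). Sult1c2 (-0.78 ± 0.14, adjusted p = 0.0018) and the cholesterol sulfotransferase Sult2b1 (-0.72 ± 0.14, adjusted p = 0.00332) fell less, and in all 4 the arrays did not overlap. The Sult2b1 call was lost without MKL347 (adjusted p = 0.0658) and without MKL367 (0.0648). Sult4a1 and Sult5a1 were tested and differed by -0.03 and 0.09.

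**Figure D3:**
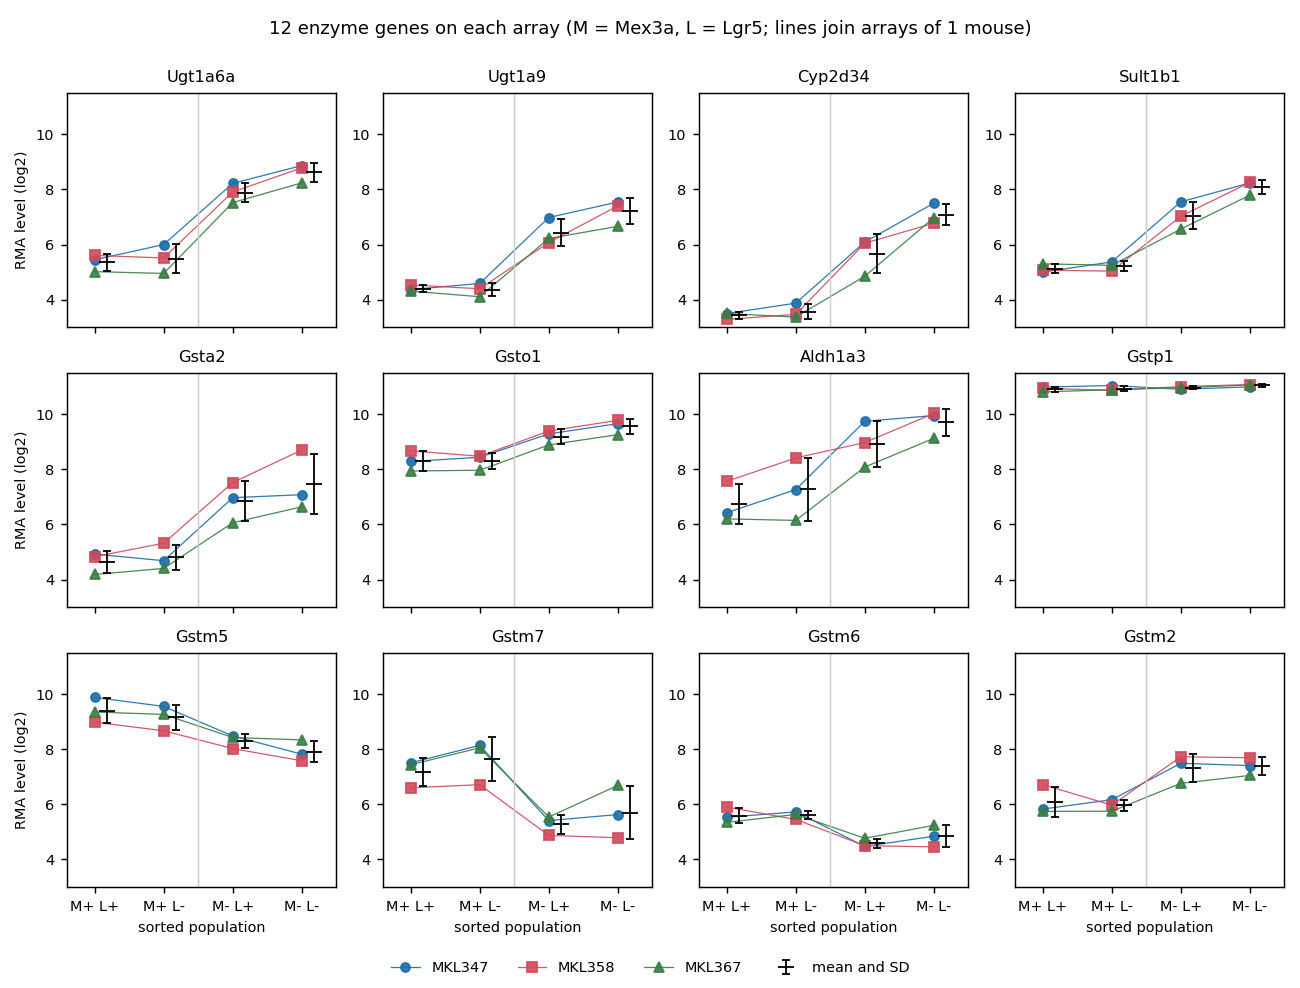
RMA level (log2, y axis) of 12 enzyme genes in each sorted population (x axis; M is Mex3a, L is Lgr5); points are single arrays, lines join arrays of 1 mouse, and black marks give mean and SD of 3 arrays. In Ugt1a6a the 6 Mex3a- arrays (7.52 to 8.86) lie above the 6 Mex3a+ arrays (4.95 to 5.997), in Gstm5 the order is the opposite, and Gstp1 stays between 10.81 and 11.07.

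Each Lgr5 state alone showed the Mex3a difference in the same direction: all 27 members called lower and all 7 called higher had the same sign among Lgr5+ cells and among Lgr5- cells, 2 comparisons that share no arrays. Among Lgr5+ cells (3 arrays against 3), 14 members were called lower and 4 higher, beside 4.8% and 3.21% of all genes. Among Lgr5- cells the counts were 23 and 6, beside 11.7% and 5.15%. Without MKL347 these fell to 1 lower and 0 higher among Lgr5+ cells and 7 and 0 among Lgr5- cells. Without MKL367 they were 6 and 1, and 17 and 3, and without MKL358 14 and 4, and 21 and 5. The shares over all genes in these fits were not tabulated. For the average, the calls over all genes also fell without MKL347, from 2174 lower and 1248 higher to 721 and 295. The average difference from which the 27 and 7 were taken is the mean of both Lgr5 states, so the shared sign is partly fixed by that choice. Of the 27, 13 were called lower in both states, 10 only among Lgr5- cells, 1 only among Lgr5+ cells and 3 in neither; with the mouse as a block 24 were called in both. The block gave 26 lower and 8 higher among Lgr5+ cells (13.2% and 8.84% of genes) and 28 and 8 among Lgr5- cells (21.1% and 10.8%).

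The falls were mostly larger among Lgr5- cells, but no difference between the states passed the test. In 25 of the 27 members the fall was larger among Lgr5- cells, with medians of -0.87 among Lgr5+ and -1.19 among Lgr5- cells. The matching share of all genes called lower was not computed. Over all genes tested, lower calls were also more frequent among Lgr5- cells (11.7%) than among Lgr5+ cells (4.8%), so this is not shown to be particular to the enzymes. Cyp2d34 differed by -2.24 ± 0.29 (SE, adjusted p = 0.00237) among Lgr5+ cells and -3.51 ± 0.29 (SE, adjusted p = 8.04e-05) among Lgr5- cells, at least 2.40-fold and 6.41-fold with its Mex3a+ arrays at the filter level. Sult1b1 differed by -1.92 ± 0.22 (SE, adjusted p = 0.00119) and -2.88 ± 0.22 (SE, adjusted p = 6.43e-05), and Ugt1a6a by -2.53 ± 0.27 (SE, adjusted p = 0.000984) and -3.14 ± 0.27 (SE, adjusted p = 8.95e-05). Between Lgr5+ and Lgr5- cells, Sult1b1 differed by -0.09 in Mex3a+ cells and -1.05 in Mex3a- cells, and Ugt1a6a by -0.13 and -0.75. Cyp2d34 differed by -1.42 in Mex3a- cells; in Mex3a+ cells it was below the filter level on every array, so no difference could be measured there. The interaction, the test of that difference, called no member with limma without the block or with it (0% of all genes in either direction in both fits); 6 members had an unadjusted p under 0.05, 5 with the higher difference among Lgr5+ cells and 1 with the lower. The mu genes that rose differed by similar amounts in both states, 1.91 ± 0.47 and 1.93 ± 0.47 for Gstm7, and 1.09 ± 0.27 and 1.25 ± 0.27 for Gstm5.

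**Figure D4:**
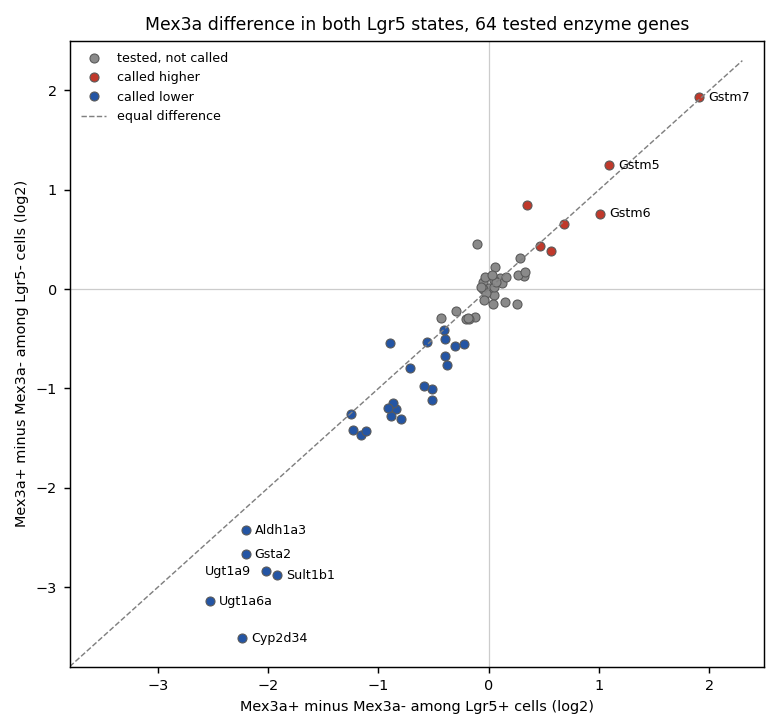
Mex3a+ minus Mex3a- difference (log2) among Lgr5- cells (y axis) against that among Lgr5+ cells (x axis), 3 arrays against 3 each, for the 64 tested enzyme genes, coloured by the call of the average; the dashed line marks equal differences. Of the 27 genes called lower, 25 lie below the line, while Gstm7 (1.91 and 1.93) lies on it.

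Few enzymes differed by Lgr5 status. Averaged over both Mex3a states, limma called no member without the block (0.00794% of all genes were called lower and 0.0318% higher), and 10 members had an unadjusted p under 0.05, 9 of them lower in Lgr5+ cells. With the mouse as a block 4 members were called lower and none higher, beside 0.627% and 1.18% of genes: Cyp2d34 (-0.78 ± 0.16, adjusted p = 0.0284), Ugt1a6a (-0.44 ± 0.08, 0.0241), Ces2a (-0.34 ± 0.07, 0.0431) and Aldh2 (-0.24 ± 0.05, 0.0431). Between Mex3a+ cells, no member was called in either direction without the block (0% and 0% of genes) or with it (0.0159% lower, 0.0556% higher), and none had an unadjusted p under 0.05. Between Mex3a- cells, none was called without the block (0.00794% lower, 0.0238% higher) and 13 had an unadjusted p under 0.05, all lower in Lgr5+ cells. With the block 6 were called lower there and none higher (0.81% of genes in each direction): Cyp2d34 (-1.42, adjusted p = 0.01), Sult1b1 (-1.05, 0.0179), Ugt1a6a (-0.75, 0.0108), Ces2a (-0.53, 0.0285), Aldh2 (-0.40, 0.0213) and Gsto1 (-0.38, 0.0285). Leaving out 1 mouse, the blocked fit called 0 to 1 member lower on average, with 0 without MKL347, and 1 to 2 between Mex3a- cells. Leaving out 1 array it called 0 to 4, with 0 without the Mex3a+ Lgr5+ or the Mex3a+ Lgr5- array of MKL347, and 1 to 8, with 1 without the Mex3a- Lgr5+ array of MKL358 and 8 without the Mex3a- Lgr5- array of MKL367. Without that last array 2 were called higher on average and 1 between Mex3a- cells, against 0 in each of the others. Of the 27 members called lower for Mex3a, 25 had their highest mean in Mex3a- Lgr5- cells. The matching share of all genes called lower was not computed.

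**Figure D5:**
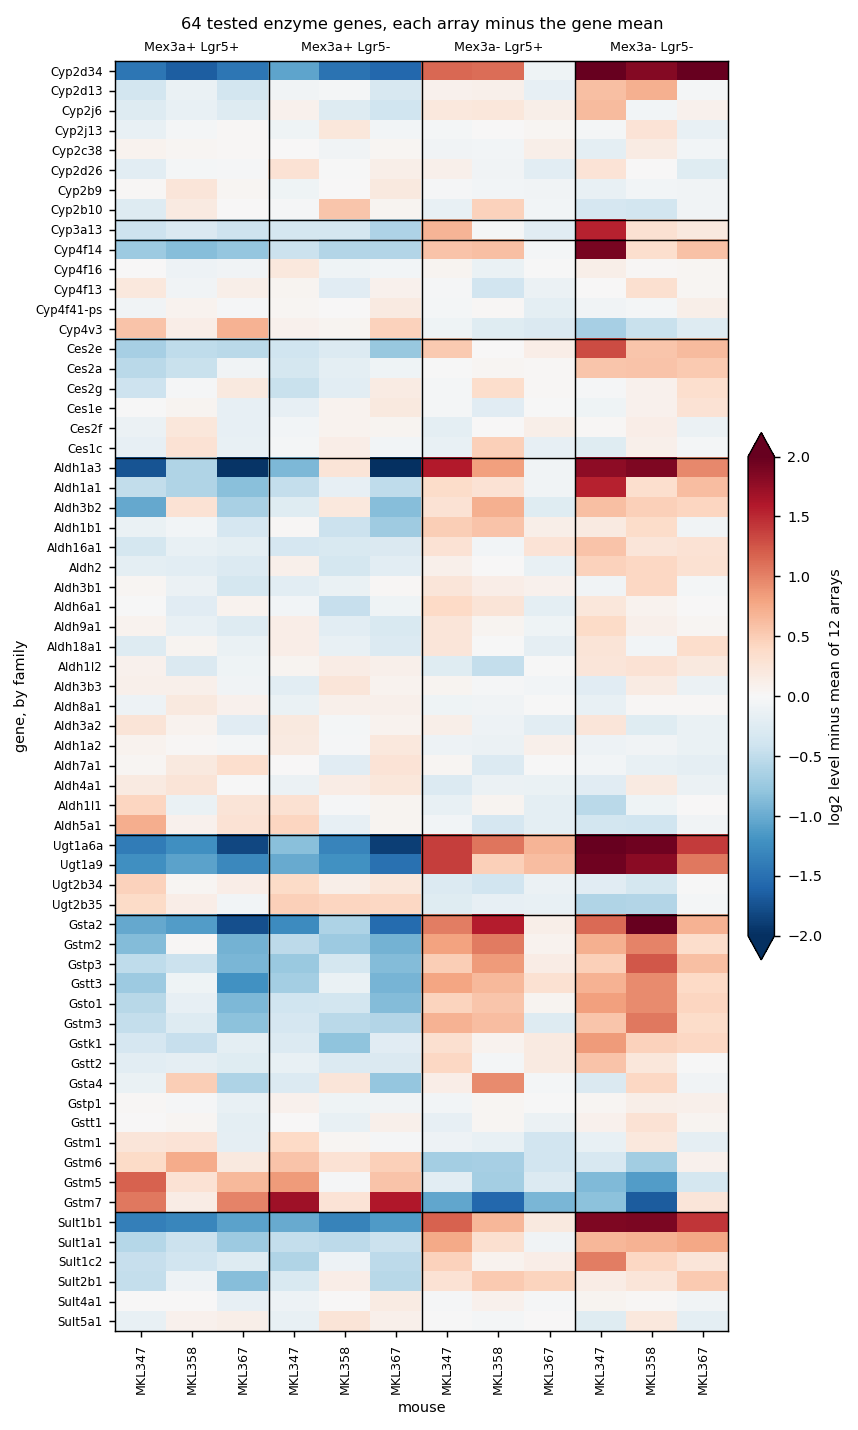
Level of the 64 tested enzyme genes (rows, by family) on each array (columns, by population and mouse) minus the mean of the gene over the 12 arrays, in log2 units, with colours ending at -2 and 2. Ugt1a6a, Ugt1a9, Cyp2d34, Sult1b1 and Gsta2 are low in the 6 Mex3a+ columns. Aldh1a3 is low there too, except on the Mex3a+ Lgr5- array of MKL358 (8.41, above its mean of 8.16). All of these have their highest mean in Mex3a- Lgr5- cells, and the means of Gstm5, Gstm6 and Gstm7 show the opposite order for Mex3a.

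The shares of promoter windows with each motif are given for the called members beside those of all windows. RefSeq windows were found for 99 of the 123 genes (116 windows). GCGTG was in 6 of 28 windows of members called lower (21.43%) and in 2 of 10 of members called higher (20%), against 32.39% of all 32851 windows. TGACNNNGC was in 2 of 28 (7.14%) and 2 of 10 (20%), against 12.39%. GTTAAT was in 4 of 28 (14.29%) and 0 of 10, against 7.1%, and CAAAGTCCA in 1 of 28 (3.57%) and 0 of 10, against 0.47%. Over all 116 windows of members, called or not, the shares were 24.14% for GCGTG, 6.9% for TGACNNNGC, 9.48% for GTTAAT and 4.31% for CAAAGTCCA. The share of CAAAGTCCA was thus no higher in members called lower than in all members. Some genes have several windows that overlap, so these are not independent sequences and no test was made.

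Regulators of these enzymes, from a list of sensors and their partners, included many that fell in Mex3a+ cells. Of 19 tested of 26 listed genes, 11 fell and 1 rose (2 with the mouse as a block), beside 17.3% and 9.91% of all genes. The bile acid receptor Nr1h4 differed by -1.19 ± 0.11 (SE, adjusted p = 4.36e-05) and Hnf4a, a nuclear receptor of the differentiated epithelium, by -0.71 ± 0.10 (SE, adjusted p = 0.000498). The gene that rose was Ahr, the aryl hydrocarbon receptor (0.87 ± 0.13, adjusted p = 0.000622), whose classical target Cyp1a1 was too dim to test. Nfe2l2, the factor that acts through the antioxidant response element, was not called (0.03 ± 0.09, adjusted p = 0.82). Of 18 tested targets of Nfe2l2 outside the families, 7 fell (11 with the block) and 1 rose, led by Txn1 (-0.23 ± 0.04, adjusted p = 0.000899), Gclm, a subunit of the first enzyme of glutathione synthesis (-0.50 ± 0.09, adjusted p = 0.0021), and Srxn1 (-0.74 ± 0.14, adjusted p = 0.00243).

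Enzymes and carriers that work beside the families gave the counts below. Of all genes tested, 17.3% were called lower and 9.91% higher, or 25.3% and 15.9% with the block. Among 28 tested other phase I enzymes and redox partners, 12 fell and 2 rose (4 with the block), led by Hsd11b2, which inactivates glucocorticoids (-2.45 ± 0.17, adjusted p = 7.49e-06), Akr1c19 (-0.93 ± 0.13, adjusted p = 0.000421) and the carbonyl reductase Cbr2 (-1.60 ± 0.22, adjusted p = 0.000432). Among 20 tested conjugating enzymes and genes of cofactor supply, 7 fell and 1 rose, led by the microsomal Mgst2 (-0.89 ± 0.12, adjusted p = 0.000414), Acsm3 (-0.83 ± 0.12, adjusted p = 0.000498) and Gss, glutathione synthetase (-0.56 ± 0.10 (SE, adjusted p = 0.00205); 0.0754 without MKL347). Of 14 tested transporters, 5 fell and 2 rose; the exporters Abcg2 (-1.11 ± 0.07, adjusted p = 5.53e-06) and Abcc3 (-1.82 ± 0.17, adjusted p = 4.07e-05) and the bile acid carrier subunit Slc51b (-1.13 ± 0.12, adjusted p = 9.89e-05) led. Genes of retinoid handling outside the Aldh family showed 2 falls among 15 tested (3 falls and 3 rises with the block), in Adh1 (-1.52 ± 0.27, adjusted p = 0.00175) and Rxra (-0.38 ± 0.10, adjusted p = 0.0115); the Rxra call was lost without any 1 of the mice (0.0504 to 0.0758). Stra6, the retinol uptake receptor, was called higher with the block and not without (0.61 ± 0.25, adjusted p = 0.00274 against 0.0981).

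The marker lists of colonocytes and goblet cells were lower on the same arrays as the enzymes that fell. The shares over all genes tested were 17.3% lower and 9.91% higher, or 25.3% and 15.9% with the block. Of 26 tested colonocyte markers, 21 were lower and 2 higher in Mex3a+ cells (Cyp2c55, 1 of the 123 members and too dim to test, is on that list, as is Slc51b), and the list stood between -1.19 and -0.41 on the 6 Mex3a+ arrays and between 0.29 and 1.44 on the 6 Mex3a- arrays. All 15 tested goblet cell markers were lower, with -0.98 to -0.55 against 0.30 to 1.21. Of 16 tested markers of crypt base stem cells, 9 were higher and 2 lower (4 with the block), with -0.07 to 0.29 on Mex3a+ arrays and -0.48 to 0.10 on Mex3a- arrays. The part of these shifts in the enzyme differences was not tested. Of 13 tested hepatocyte markers, 2 were higher and 4 lower; its level stood between -0.17 and 0.05 on Mex3a+ and between -0.05 and 0.23 on Mex3a- arrays. Of its defining genes, Alb was bright and higher in Mex3a+ cells (means 8.67 and 6.31), whereas Fga (3.17 and 3.15) and Serpina1a (2.98 and 2.95) were below the filter level. The lists for enteroendocrine cells, lymphocytes, mast cells and erythroid cells had no call in either direction (1 rise of an erythroid gene with the block), those for fibroblasts and smooth muscle 2 rises, endothelium 1 rise (2 with the block) and 1 fall, tuft cells 1 rise and 2 falls, myeloid cells 3 falls and neutrophils 1 fall (4 with the block). The part of these cells in the enzyme differences was not tested; the count without each array that stood apart is given above with the other counts.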

How the data were processed

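Per the submitters' processing notes, the authors summarised each array with RMA (background correction, quantile normalization and probe set summary in 1 method; the sources used here give neither options nor version), and the deposited table holds log2 values for 45141 probe sets on 12 arrays. Per the labels' protocols, RNA of sorted cells was amplified into cDNA before hybridisation, which can compress or distort differences of dim genes. Probe sets were named from GEO's platform annotation: 28898 had 1 symbol, 551 several and 15692 none; only the first were used, and the brightest stood for each of the 7180 genes with several.

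Genes above 4.40 (the 40th percentile of all values) on at least 3 arrays entered limma 3.58.1 (R 4.3.3): 1 model of the 4 populations with an intensity trend, and contrasts for Mex3a, Lgr5 and their interaction, adjusted by Benjamini-Hochberg over 12595 genes. The number of arrays limits the precision, with a median SE of 0.0901, or 0.0718 with the mouse as a block. The mouse number in the titles pairs the arrays, because a number is 1 animal. Deviations from the population means correlated at 0.349 to 0.694 within a mouse (18 pairs of arrays) and at -0.691 to 0.152 between mice (48 pairs). The 3 deviations of a population sum to 0, which pushes its pairs of arrays from different mice to negative values. The range between mice is thus partly fixed by the subtraction. The scripts were tested on simulated data. Figures were drawn with matplotlib 3.10.9 from Python 3.11.15.

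The members and all lists were chosen with earlier results of these data known. Named members are, per family (P450 families 1 to 4 apart), up to 6 called in each direction (4 for each P450 family), largest first and with the same sign in all mice. To these come called members of other comparisons (filled from the blocked fit), the 3 brightest of each family, and up to 6 called only with the block. Each list adds the 3 genes of smallest p. Members and regulators named beyond that were chosen after their values were seen. Alternatives were the mouse as a block, other filters, quantile normalization, median centring, all probe sets averaged, no cross-reacting probe sets, array weights, no intensity trend, and every mouse or array left out in turn. RefSeq promoter windows (GRCm38.p6) were searched for 4 motifs on both strands; no whole genome and no protein sequences were used here.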

Additional observations from a re-analysis of the deposited data

How the results depend on the processing

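No called member changed sign for the Mex3a average under any alternative in which it was tested. Pairing arrays by mouse as a block moved 3 sets of counts by over 1.5 times: among Lgr5+ cells 26 members were called lower and 8 higher for Mex3a (14 and 4 without the block), and for Lgr5 status 4 were called lower on average and 6 among Mex3a- cells (0 and 0 without). Leaving out 1 mouse or 1 array gave 17 to 28 lower and 3 to 8 higher members for the Mex3a average, 1 to 16 and 0 to 6 among Lgr5+ cells, and 7 to 23 and 0 to 7 among Lgr5- cells. The lowest of each was without MKL347. Leaving out any 1 mouse removes 4 of the 12 arrays. For the Mex3a average, 25 lower and 8 higher members were called without MKL358, and 22 and 6 without MKL367. The other settings gave 21 to 29 lower and 6 to 10 higher members for the Mex3a average, with the fewest under a filter at the 60th percentile, which left 39 members to test, and the most with no filter. Over the tested members and the alternatives, members called lower for the Mex3a average stayed past the threshold in 633 fits and lost it in 33, members called higher stayed in 168 and lost it in 5, and members not called stayed so in 710 and were called in 20. For the Lgr5 average, members not called stayed so in 1565 and were called in 4, all with the block. Members near or below 4.40 on all arrays lie where signal over background limits the measurement, so their small differences do not show that the transcripts are alike.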
